A study of Mus musculus with 12 samples.

Results

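The genes of the MHC class II antigen presentation pathway were followed in mouse liver: H2-Aa, H2-Ab1, H2-Eb1, Cd74, H2-DMa, H2-DMb1, H2-Oa, H2-Ob and Ciita, 9 of the 41325 genes listed. They were chosen by name for their role in the pathway, and all 9 had enough reads to be among the 16456 genes tested. The 12 livers came from wild-type (WT) mice of the strain C57BL/6J, in 3 groups of 4. The CDDO-Me group had nonalcoholic steatohepatitis (NASH), in which a fatty liver becomes inflamed and scarred, induced by diet, and received CDDO-Me at 10 mg/kg, given by mouth for 8 weeks per the design text. The NASH vehicle group had the same disease model and received vehicle, and the control group had no NASH label and also received vehicle. The disease was induced with CDAHFD, a choline-deficient, amino acid-defined, high-fat diet, which lowers choline supply as well as adding fat. The diet of the control mice and the age and sex of the animals are not given in the labels, and no CDDO-Me group without NASH is analysed here, so an effect of the compound on healthy liver cannot be read from these samples. CDDO-Me (bardoxolone methyl) is a synthetic triterpenoid that activates the transcription factor NRF2, and the series title names macrophage recruitment as its subject.

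MHC class II molecules display peptides from engulfed proteins to CD4 T cells. Each molecule pairs an alpha with a beta chain in the endoplasmic reticulum, where the invariant chain, encoded by Cd74, fills the groove and steers the complex to endosomes. There proteases trim the invariant chain to a short peptide, CLIP. H2-DM then exchanges CLIP for other peptides, and H2-O restrains H2-DM. Ciita encodes the coactivator that switches these genes on together by docking on proteins bound to a shared promoter module, the X and Y boxes. In the liver the pathway is known mainly from dendritic cells, B cells and macrophages, Kupffer cells among them.

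All values are from bulk tissue, in which fewer cells of a type and less RNA per cell cannot be told apart. Markers of hepatocytes were abundant in every library (summed TPM, a level per transcript length, of 54800 to 88300 over 7 genes), as the tissue label states. Libraries held 28161057 to 33852338 reads. Library scaling by trimmed mean (TMM) gave factors of 0.97 to 1.20 in CDDO-Me, 1.11 to 1.31 in NASH vehicle and 0.73 to 0.83 in control livers. Control 3 stood apart from the other control livers in cholangiocyte markers, with a summed 259 TPM in a group whose median was 57.3 TPM, and it was also the control liver with the highest value for 8 of the 9 class II genes.

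Of the 9 genes, 7 lie in the MHC region of chromosome 17. In the deposited tables, on build GRCm38, they are H2-Oa (34092340 to 34095234, plus strand), H2-DMa (34135182 to 34139101, plus), H2-DMb1 (34153072 to 34160230, plus), H2-Ob (34238903 to 34245907, plus), H2-Ab1 (34263209 to 34269418, plus), H2-Aa (34282744 to 34287827, minus) and H2-Eb1 (34305877 to 34316199, plus). Ciita lies on chromosome 16 (10480059 to 10528418, plus). Promoter windows of 250 bases before to 50 after the start were taken from RefSeq (GRCm38.p6), which matched 6 of the 9 genes. The 2 windows of H2-DMa lie 9664 and 12350 bases from the deposited gene start and are not shown. The stretches below are shown for the letters of the promoter boxes of the family, which each holds in part or in full. They are printed 5′ to 3′ on the gene's strand, with matches in capitals: GATTGG is the core of the Y box, GNAAC and, 3 bases further on, TGATG are an X box with the start of a cyclic AMP response element, and TGACGTCA a complete such element.
H2-Oa (chr17:34092291-34092350, plus): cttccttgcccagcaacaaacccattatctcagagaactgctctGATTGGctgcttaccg
H2-DMb1 (chr17:34153085-34153144, plus): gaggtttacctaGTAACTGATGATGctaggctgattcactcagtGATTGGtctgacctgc
H2-Ob (chr17:34238803-34238862, plus): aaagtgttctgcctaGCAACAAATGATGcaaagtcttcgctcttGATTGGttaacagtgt
H2-Aa (chr17:34287857-34287916, minus): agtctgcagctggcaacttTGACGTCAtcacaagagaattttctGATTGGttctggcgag
H2-Eb1 (chr17:34305763-34305822, plus): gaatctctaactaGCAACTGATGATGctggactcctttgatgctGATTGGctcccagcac

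All 5 stretches hold GATTGG, ending 39 to 57 bases before the RefSeq start. On either strand, 16.1% of the 32851 promoter windows hold these letters. That X box string stands in 3 of the 5 stretches, 16 to 19 bases before the Y box, and in 0.183% of all windows. The Y box letters and the X box letters occurred together in 12 windows (0.0365%) of 9 genes, and H2-DMb1, H2-Ob and H2-Eb1 are 3 of those 9. TGACGTCA stands in the H2-Aa stretch and in 1.79% of windows. The letters were chosen after these promoters had been read, so the shares describe how rare the strings are and test nothing, and overlapping matches of the 3 strings were each counted. A window without a match says nothing of whether a factor binds there. H2-Ob and H2-DMb1, which share both boxes, are compared by their ratio in each liver further on.

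NASH vehicle livers were compared with control livers to ask what the disease model did to the pathway. RNA of all 9 genes rose in NASH vehicle livers (quasi-likelihood F test of edgeR, p adjusted after Benjamini-Hochberg, threshold 0.05), where 29.6% of all tested genes were called higher. The median log2 fold change of the family was 3.08, against -0.009 over all tested genes, and it was 3.25 without control 3. With library totals in place of TMM, 9908 genes were called higher and 1326 lower, against 4874 and 4945 with TMM; the median of all genes was then 0.618 and that of the family 3.71. The 4 NASH vehicle values lay above the 4 control values for each of the 9 genes, as they did for 27.0% of tested genes. CDDO-Me livers were then compared with NASH vehicle livers. RNA of Cd74 and H2-Ab1 fell, 2 of the 9 genes, where 7.24% of tested genes were called lower and 9.39% higher. With library totals in place of TMM, 926 genes were called higher and 1589 lower, against 1545 and 1191 with TMM. The other 7 did not pass, although all 9 fitted values were negative, with a median log2 fold change of -0.646 against -0.006 over all tested genes. Set against control livers, CDDO-Me livers had all 9 genes higher (26.2% of tested genes were called higher), with log2 fold changes of 1.99 to 2.89. This last comparison shares its libraries with the other 2 and is no separate evidence.

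**Figure D1:**
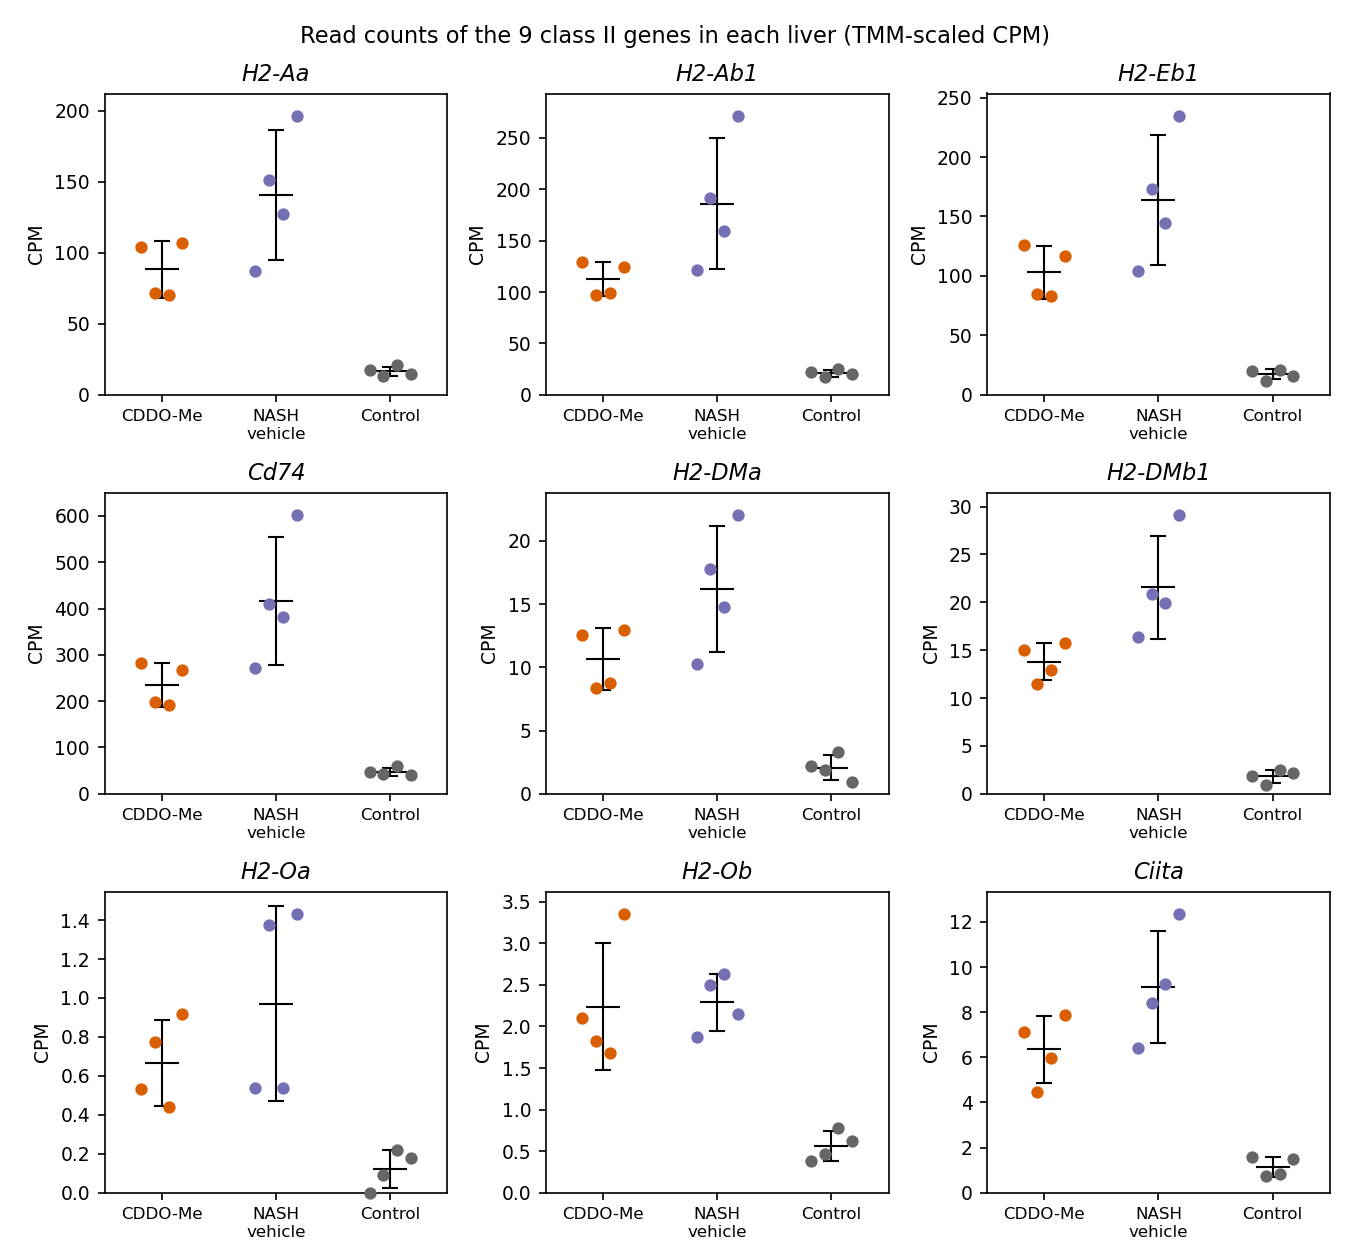
Read counts scaled to library size (CPM with TMM, linear axes starting at 0) of the 9 class II genes in each liver, replicates 1 to 4 from left to right within a group; horizontal bars and whiskers are the mean and SD of 4 livers. Control livers lie below every NASH liver for all 9 genes, and the CDDO-Me and NASH vehicle values overlap for each gene but H2-DMb1.

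The classical alpha and beta chains form the displayed molecules: H2-Aa and H2-Ab1 pair as I-A, and H2-Eb1 is the beta chain of I-E. C57BL/6 mice are known not to display I-E because their gene for its alpha chain, H2-Ea, is defective, and H2-Ea is not among the genes analysed here. Levels are given in CPM, the number of reads relative to the TMM-scaled library total. H2-Ab1 had 129, 97.5, 98.8 and 125 CPM in CDDO-Me livers 1 to 4, against 121, 192, 159 and 272 CPM in NASH vehicle livers and 22.4, 16.9, 24.8 and 20.3 CPM in control livers. NASH vehicle 4 was high and NASH vehicle 1 low, and NASH vehicle 1 lay within the range of the CDDO-Me livers. The log2 fold change of H2-Ab1 was 3.14 ± 0.23 (SE) in NASH vehicle against control livers (edgeR adjusted p = 2.8e-07). In CDDO-Me against NASH vehicle livers it was -0.72 ± 0.21 (95% interval -1.18 to -0.27, edgeR adjusted p = 0.032), a fall to 0.605 of the NASH vehicle level.

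H2-Aa had 104, 71.5, 70.6 and 107 CPM in CDDO-Me livers, against 87.5, 152, 127 and 196 CPM in NASH vehicle livers and 17.4, 13.01, 20.8 and 14.9 CPM in control livers. The CDDO-Me and NASH vehicle ranges overlapped, and the difference did not pass (log2 fold change -0.67, 95% interval -1.18 to -0.16, edgeR adjusted p = 0.070). H2-Eb1 had 126, 85.1, 83.3 and 117 CPM in CDDO-Me livers, against 104, 173, 144 and 235 CPM in NASH vehicle livers and 19.9, 11.8, 21.1 and 16.1 CPM in control livers. Its pattern over the livers was that of H2-Aa, with the same order of the 4 NASH vehicle livers, and the difference of -0.67 did not pass either (edgeR adjusted p = 0.081). Against control livers both rose in NASH vehicle livers, H2-Aa by a log2 fold change of 3.09 ± 0.26 and H2-Eb1 by 3.25 ± 0.27 (edgeR adjusted p = 1.0e-06 for each).

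Cd74, the invariant chain, lies outside the MHC region, on chromosome 18 (60803848 to 60812646, plus strand), and was the most abundant RNA of the family in every group. It had 283, 197, 191 and 267 CPM in CDDO-Me livers, against 272, 410, 381 and 602 CPM in NASH vehicle livers and 46.3, 43.5, 60.6 and 41.4 CPM in control livers. Again NASH vehicle 1 lay among the CDDO-Me livers and the other NASH vehicle livers above them. Cd74 rose by a log2 fold change of 3.12 ± 0.24 in NASH vehicle against control livers (edgeR adjusted p = 3.0e-07). It fell by 0.83 ± 0.22 on the log2 scale in CDDO-Me against NASH vehicle livers (edgeR adjusted p = 0.021), to 0.563 of the NASH vehicle level.

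The calls on Cd74 and H2-Ab1 rested on single livers. Without NASH vehicle 4, CDDO-Me 2 or CDDO-Me 3, neither was called and 0 of the 9 genes passed; Cd74 had adjusted p of 0.069, 0.072 and 0.074 and H2-Ab1 of 0.093, 0.10 and 0.10 in those fits by edgeR. Without NASH vehicle 2, H2-Ab1 was not called (edgeR adjusted p = 0.074) and Cd74 was the sole gene left. Without NASH vehicle 1, 5 of the 9 passed, with H2-Aa, H2-Eb1 and H2-DMb1 added, and DESeq2 called the same number. Every one of the 22 alternatives kept the fitted values of these 5 genes negative.

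H2-DMa and H2-DMb1 form the peptide exchanger. H2-DMb1 had 15.0, 11.5, 12.95 and 15.7 CPM in CDDO-Me livers, against 16.4, 20.9, 19.9 and 29.1 CPM in NASH vehicle livers and 1.81, 0.92, 2.52 and 2.15 CPM in control livers. It was the 1 gene of the family whose CDDO-Me values all lay below the NASH vehicle values (10.2% of tested genes did so), yet its difference did not pass (log2 fold change -0.65, 95% interval -1.13 to -0.17, edgeR adjusted p = 0.065). It passed in 8 of the 22 alternatives, at an adjusted p of 0.043 with reads that map to a single place. Of its reads, 92.0% did so, the rest being shared, and a near-identical copy, H2-DMb2, lies beside it. Against control livers H2-DMb1 rose in NASH vehicle livers by a log2 fold change of 3.53 ± 0.26 (edgeR adjusted p = 2.4e-07), the highest of the 9 fitted values.

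H2-DMa had 12.6, 8.35, 8.76 and 12.96 CPM in CDDO-Me livers, against 10.2, 17.8, 14.8 and 22.1 CPM in NASH vehicle livers and 2.23, 1.84, 3.33 and 0.89 CPM in control livers. The CDDO-Me and NASH vehicle livers overlapped (log2 fold change -0.60, 95% interval -1.27 to 0.06, edgeR adjusted p = 0.21). Against control livers it rose by a log2 fold change of 2.95 ± 0.34 in NASH vehicle livers (edgeR adjusted p = 1.3e-05).

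H2-Oa and H2-Ob encode the inhibitor of H2-DM, known mainly from B cells. H2-Ob had 2.10, 1.82, 1.68 and 3.35 CPM in CDDO-Me livers, against 1.88, 2.501, 2.63 and 2.15 CPM in NASH vehicle livers and 0.38, 0.46, 0.78 and 0.63 CPM in control livers. CDDO-Me 4 held the highest value of all 12 livers, and the order of the NASH vehicle livers was not that of the other genes, with NASH vehicle 3 on top. H2-Ob rose in NASH vehicle against control livers by a log2 fold change of 2.02 ± 0.31 (edgeR adjusted p = 9.6e-05), the smallest fitted value of the 9. In CDDO-Me against NASH vehicle livers its log2 fold change was -0.03 with a 95% interval of -0.64 to 0.58 (edgeR adjusted p = 0.96), an interval that includes the values fitted for H2-DMa, H2-Oa and Ciita but not those of the other members. H2-DMb1, at -0.646, lay just outside its lower end of -0.641. The intervals of all other members overlap that of H2-Ob, so no difference from them can be read from this.

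H2-Oa had the fewest reads of the family, 242 in all 12 libraries. It had 20, 22, 12 and 32 reads in CDDO-Me livers, against 18, 50, 22 and 54 reads in NASH vehicle livers and 0, 2, 6 and 4 reads in control livers. It rose in NASH vehicle against control livers by a log2 fold change of 2.94 ± 0.64 (edgeR adjusted p = 0.0014). Its CDDO-Me difference of -0.54 had a 95% interval of -1.68 to 0.60 (edgeR adjusted p = 0.53), an interval that includes the value fitted for Cd74. H2-Oa lies wholly within BC051537, which runs on the other strand and had 17 reads, and 69.4% of its reads mapped to a single place; the strand setting of the counting is not given in the sources used here.

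Ciita, the master coactivator, had 7.13, 4.46, 5.98 and 7.86 CPM in CDDO-Me livers, against 6.41, 8.41, 9.25 and 12.4 CPM in NASH vehicle livers and 1.57, 0.74, 0.81 and 1.48 CPM in control livers. As for the chains it switches on, NASH vehicle 1 was the lowest and NASH vehicle 4 the highest of their group. Ciita rose in NASH vehicle against control livers by a log2 fold change of 2.98 ± 0.30 (edgeR adjusted p = 2.2e-06). In CDDO-Me against NASH vehicle livers its log2 fold change was -0.52 with a 95% interval of -1.08 to 0.05 (edgeR adjusted p = 0.20). Only 30.2% of its 2309 reads mapped to a single place, and the gene overlaps Dexi, on the other strand, over 25888 of its 48360 bases. With reads of a single place alone the values were 2.75 in NASH vehicle against control livers and -0.84 in CDDO-Me against NASH vehicle livers (edgeR adjusted p = 2.2e-05 and 0.089), so the level and the size of change of Ciita are uncertain.

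**Figure D2:**
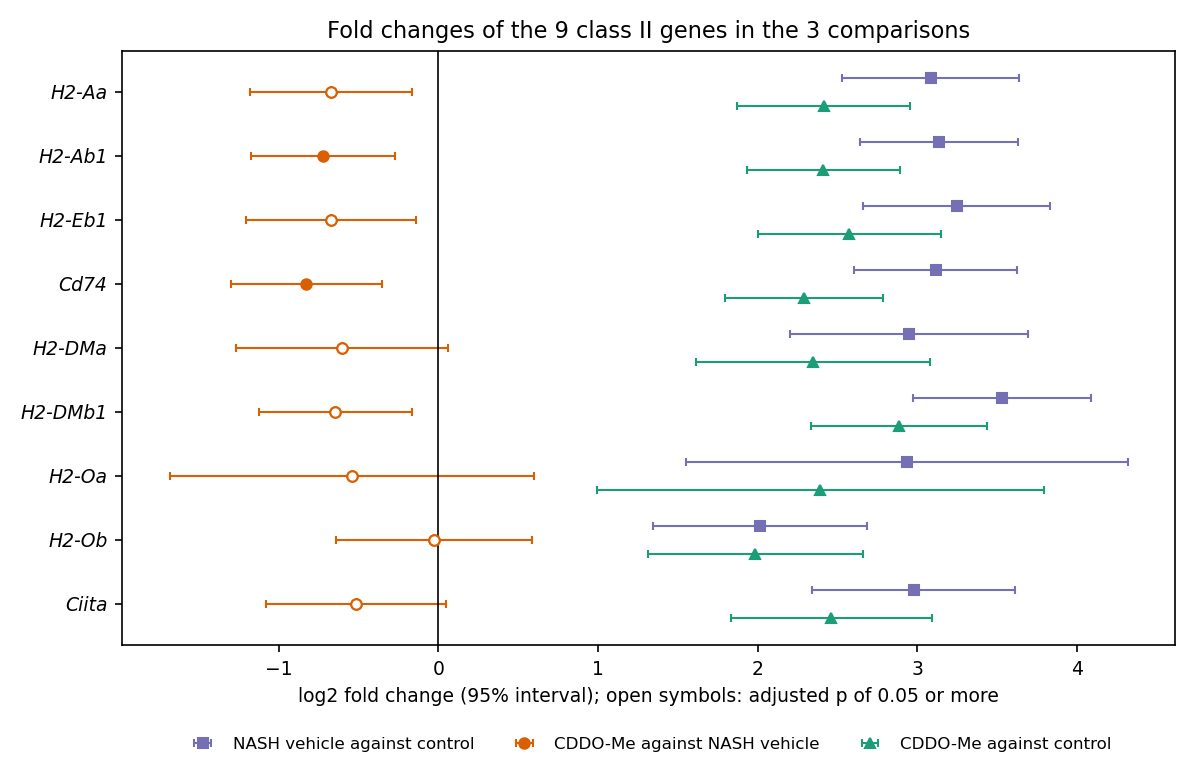
Log2 fold changes of the 9 class II genes with 95% intervals in NASH vehicle against control (squares), CDDO-Me against NASH vehicle (circles) and CDDO-Me against control (triangles); filled symbols passed the adjusted threshold of 0.05. Both comparisons against control lie to the right of 0 for every gene, and in CDDO-Me against NASH vehicle Cd74 (-0.83) and H2-Ab1 (-0.72) are the filled circles.

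The NASH vehicle livers kept nearly the same order across the family, and the other groups did so in part. NASH vehicle 1 was the lowest of its group for 9 of the 9 genes and NASH vehicle 4 the highest for 8. In the CDDO-Me group, replicates 1 and 4 both lay above replicates 2 and 3 for 8 of the 9 genes. In the control group replicate 3 was the highest for 8 genes, while the lowest was replicate 2 for 5 genes and replicates 1 and 4 for 2 each. The summed level of 10 macrophage markers was 2103, 1252, 1371 and 2986 TPM in CDDO-Me livers 1 to 4, against 2701, 5089, 5673 and 5946 TPM in NASH vehicle livers and 128, 134, 244 and 120 TPM in control livers. The summed level of 9 dendritic cell markers was 43.9, 28.4, 26.2 and 70.6 TPM in CDDO-Me livers, against 36.4, 62.5, 64.4 and 67.6 TPM in NASH vehicle livers and 1.71, 1.25, 2.89 and 1.41 TPM in control livers. NASH vehicle 1 was thus also the lowest of its group in both marker sums, and CDDO-Me 1 and 4 the highest of theirs. Of the 9 marker lists read, 5 had this same order, the other 3 being those of T and NK cells, stellate cells and cholangiocytes. These sums are in TPM, which are not TMM-scaled, while the class II order above is that of TMM-scaled CPM. The TMM factor was also lowest of its group in NASH vehicle 1 (1.11). In CDDO-Me 1 and 4 it was 1.14 and 1.20, against 0.999 and 0.974 in 2 and 3. Sums of the class II transcription complex and interferon gamma genes, read further on, had this order too. The part of the scaling in the shared order was not tested. Single genes weigh heavily in some of these sums. In NASH vehicle livers Lyz2 averaged 1124 CPM, against at most 356 CPM for any other macrophage marker. Itgax averaged 65.6 CPM in these livers, against at most 5.69 CPM for any other dendritic cell marker. Spp1 averaged 706 CPM, against at most 43.6 CPM for any other cholangiocyte marker. Whether each sum follows the named cell type alone was not tested. Stellate cell markers summed to 183, 121, 101 and 221 TPM in CDDO-Me livers, against 238, 337, 366 and 380 TPM in NASH vehicle livers. Hepatocyte markers summed to 79200 TPM in NASH vehicle 1, against 57900 to 62100 TPM in the other NASH vehicle livers. No marker on the macrophage or dendritic cell list was at 0 in a whole group. The part of these cells in the class II values was not tested.

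Levels per transcript length, in TPM, put the genes in an order that was nearly the same in the 3 groups. Cd74 averaged 453 TPM in CDDO-Me livers, 922 TPM in NASH vehicle livers and 59.5 TPM in control livers. H2-Eb1 followed with 232, 424 and 25.01 TPM in the same groups, H2-Ab1 with 184, 350 and 22.1 TPM, and H2-Aa with 129, 234 and 15.5 TPM. Each of these was above the next in all 4 livers of each group, except that H2-Eb1 was above H2-Ab1 in 3 of 4 control livers, although the ranges of neighbours overlapped in most cases. These 4 genes held 95.2% to 96.7% of the summed TPM of the family in each library. H2-DMb1 averaged 23.04 TPM in CDDO-Me, 42.6 TPM in NASH vehicle and 2.00 TPM in control livers, and H2-DMa 17.5, 30.4 and 2.16 TPM. H2-Ob, Ciita and H2-Oa stood at 1.31 to 1.68 TPM in CDDO-Me, 1.99 to 2.73 TPM in NASH vehicle and 0.17 to 0.25 TPM in control livers. Among these 3, genes next to each other in the order of group means changed places between livers of the same group.

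Ratios between single genes within a library do not depend on the scaling between libraries, and 11 were compared in the 3 comparisons, 33 tests in all. With 4 against 4 livers the two-sided exact permutation test cannot go below p = 0.0286, and adjusted over the 33 tests by Benjamini-Hochberg none passed, the lowest adjusted value being 0.118. All ratios are of reads per exon length, and group values are geometric means. The chains kept near-constant proportions. H2-Aa to H2-Ab1 was 0.678 in CDDO-Me, 0.662 in NASH vehicle and 0.681 in control livers, and H2-Eb1 to H2-Ab1 was 1.25, 1.22 and 1.11. Cd74 to H2-Ab1 was 2.40 in CDDO-Me, 2.61 in NASH vehicle and 2.63 in control livers, with overlapping ranges (exact permutation p = 0.0857 for CDDO-Me against NASH vehicle). The family's main RNAs thus differed by at most 1.13-fold in these 3 proportions between groups while their levels differed several-fold.

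Ratios with the peptide editors varied more. H2-Ob to H2-DMb1 was 0.0664, 0.0755, 0.0616 and 0.101 in CDDO-Me livers, against 0.0543, 0.0567, 0.0624 and 0.0349 in NASH vehicle livers and 0.104, 0.241, 0.148 and 0.141 in control livers. All control livers lay above all NASH livers, and the CDDO-Me livers lay mostly above the NASH vehicle livers, with a slight overlap. The control values rest on few reads, 10, 10, 21 and 14 of H2-Ob and 47, 20, 68 and 48 of H2-DMb1. Of these H2-Ob reads 21.8% were intron reads, so the size of the control ratio is uncertain. The ratio in NASH vehicle livers was 0.337 of that in control livers (exact permutation p = 0.0286, adjusted p = 0.118). In CDDO-Me livers it was 1.47 times that in NASH vehicle livers (exact permutation p = 0.0571, adjusted p = 0.209). H2-DMb1 to H2-Ab1 was 0.135 in CDDO-Me, 0.131 in NASH vehicle and 0.0924 in control livers. The NASH vehicle values (0.118 to 0.149) lay above the control values (0.0615 to 0.118) by a margin too small to show in the digits printed (exact permutation p = 0.0286, adjusted p = 0.118). H2-DMa to H2-DMb1 ranged from 0.382 to 1.79 in control livers, too wide for a comparison, and H2-Oa to H2-DMa was likewise limited by the reads of H2-Oa.

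**Figure D3:**
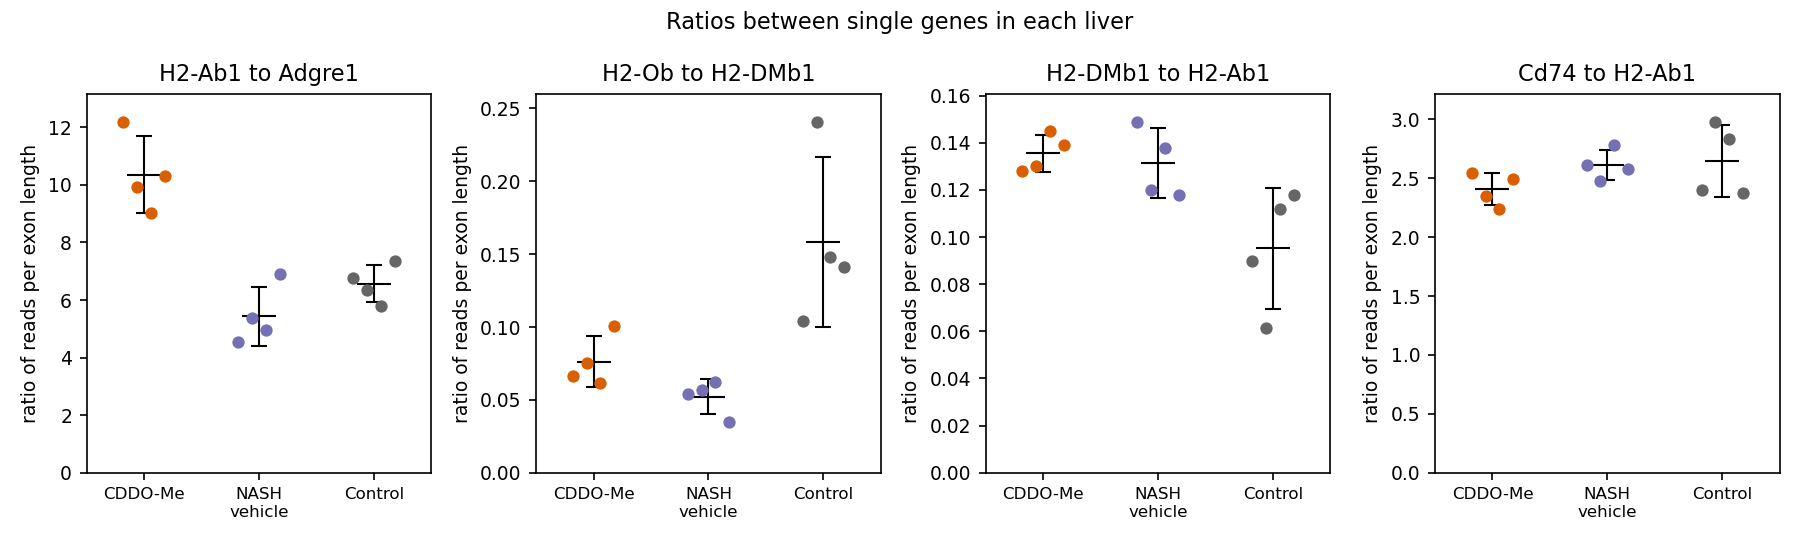
Ratios of reads per exon length between pairs of genes in each liver (linear axes from 0, replicates 1 to 4 from left to right; bars and whiskers are the arithmetic mean and SD of 4 livers). H2-Ab1 to Adgre1 lies at 9.01 to 12.2 in CDDO-Me livers, above the NASH vehicle and control livers (with Cd68 or Lyz2 in place of Adgre1 the CDDO-Me livers lie below control), H2-Ob to H2-DMb1 is highest in control livers, and Cd74 to H2-Ab1 overlaps between all groups.

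H2-Ab1 was set against 1 macrophage marker among these ratios, Adgre1, the gene of the macrophage antigen F4/80, which of 10 macrophage markers had the lowest log2 fold change in CDDO-Me against NASH vehicle livers (-1.63). Adgre1 had 21.5 ± 1.8 CPM in CDDO-Me livers, 66.2 ± 10.7 CPM in NASH vehicle livers and 6.42 ± 1.46 CPM in control livers (SD, n = 4 each). H2-Ab1 to Adgre1 was 12.2, 9.92, 9.01 and 10.3 in CDDO-Me livers, against 4.54, 5.37, 4.97 and 6.89 in NASH vehicle livers and 6.77, 6.35, 5.81 and 7.34 in control livers. All 4 CDDO-Me livers lay above all 8 others, while NASH vehicle and control livers overlapped. The ratio in CDDO-Me livers was 1.92 times that in NASH vehicle livers and 1.58 times that in control livers (exact permutation p = 0.0286 and adjusted p = 0.118 for each). Relative to Adgre1, H2-Ab1 was higher in 4 of 4 CDDO-Me livers than in any NASH vehicle liver, and this difference did not pass the correction. The outcome depended on the marker, as a comparison with all 10 showed, which was added after the values were seen and carries no test. The ratio of H2-Ab1 to the marker in CDDO-Me against NASH vehicle livers was higher for 9 of the 10 and lower for Itgam (0.915-fold), and the groups did not overlap for 4, Adgre1, C1qa, C1qb and C1qc. In CDDO-Me against control livers it was higher for 5 and lower for 5. There the groups did not overlap for Adgre1 and C1qa, with the CDDO-Me livers above, nor for Cd68 and Lyz2, with the CDDO-Me livers below (0.468-fold and 0.315-fold). In NASH vehicle against control livers the ratio was higher for 2 markers and lower for 8. The groups did not overlap there for Cd68 and Lyz2, with the NASH vehicle livers below (0.283-fold and 0.232-fold).

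Against Itgax, the gene of the dendritic cell and macrophage integrin CD11c, the pattern was another. Itgax had 55.3 ± 22.4 CPM in CDDO-Me, 65.6 ± 16.2 CPM in NASH vehicle and 0.73 ± 0.30 CPM in control livers (SD, n = 4 each). H2-Ab1 to Itgax was 6.26 in CDDO-Me and 8.18 in NASH vehicle livers (ranges 4.21 to 7.80 and 6.93 to 10.2, exact permutation p = 0.143), against 87.6 in control livers. No NASH liver overlapped the control livers (exact permutation p = 0.0286 and adjusted p = 0.118 for each NASH group). Itgax was at only 0.36 to 1.04 CPM in control livers, so the size of the control ratio is uncertain. H2-Ob to Cd79b, a B cell receptor component, was 0.715 in CDDO-Me, 0.866 in NASH vehicle and 0.447 in control livers, with overlapping ranges in all 3 comparisons.

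Another 2 class II genes of the same locus were tested at low counts. H2-DMb2, the second H2-DM beta chain, rose in NASH vehicle against control livers by a log2 fold change of 1.82 ± 0.36 and stood at -0.47 in CDDO-Me against NASH vehicle livers (edgeR adjusted p = 6.4e-04 and 0.38). H2-Eb2, a beta chain gene beside H2-Eb1, had 15, 6, 0 and 18 reads in CDDO-Me livers, against 14, 28, 14 and 27 reads in NASH vehicle livers and 0, 0, 2 and 0 reads in control livers. It passed the test in NASH vehicle against control livers (edgeR adjusted p = 0.0021), and its size cannot be given from so few control reads. Its value in CDDO-Me against NASH vehicle livers was -0.95 (edgeR adjusted p = 0.40).

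The genes of the proteins on which Ciita docks were read next. Of 7 genes of that complex, 2 rose, 4 fell and 1 did not pass in NASH vehicle against control livers, where 29.6% of tested genes were called higher and 30.0% lower. These directions depended on the scaling: library totals in place of TMM gave 3 higher and 1 lower, and limma-trend on log2(TPM + 1) 5 higher and 0 lower. Rfxank, a subunit of the X box factor RFX, fell by 0.95 ± 0.11 on the log2 scale (edgeR adjusted p = 6.7e-06), but on the TPM scale its value was -0.10 and did not pass. Nfya, a subunit of the Y box factor NF-Y, rose by 1.02 ± 0.14 (edgeR adjusted p = 2.9e-05). Of the same 7, 1 rose, 1 fell and 5 did not pass in CDDO-Me against NASH vehicle livers (0 higher and 2 lower with limma-trend, 1 higher and 0 lower with library totals). Nfyb, another NF-Y subunit, rose by 0.48 ± 0.10 (edgeR adjusted p = 0.0070; not called on the TPM scale). Nfya fell by 0.43 ± 0.13 (edgeR adjusted p = 0.046), a call lost in 9 of the 12 fits that left out a library.

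Interferon gamma is the classical inducer of Ciita, through its receptor, JAK kinases and IRF1. Of 7 tested genes of this input, 5 rose, 1 fell and 1 did not pass in NASH vehicle against control livers, and 3 fell and 4 did not pass in CDDO-Me against NASH vehicle livers. Of all tested genes, 29.6% were called higher and 30.0% lower in the first comparison, and 9.39% and 7.24% in the other. With library totals or limma-trend, all 7 were called higher in the first and 4 lower in the other. Ifngr1, a receptor chain, had 34.5 ± 5.0 CPM in CDDO-Me, 55.3 ± 10.7 CPM in NASH vehicle and 16.9 ± 0.8 CPM in control livers (SD, n = 4 each). Its log2 fold change was -0.68 ± 0.13 in CDDO-Me against NASH vehicle livers (edgeR adjusted p = 0.0041). Irf1 fell by 0.39 ± 0.11 (edgeR adjusted p = 0.024; not called without NASH vehicle 1, NASH vehicle 2 or CDDO-Me 3), and Ifngr2 did not pass (-0.33, edgeR adjusted p = 0.071). Ifng itself had 6 reads in all CDDO-Me livers, 6 in all NASH vehicle livers and 2 in all control livers, too few to test.

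Some transcription factors set up the lineages that bear class II. Of 7 such genes, 4 rose and 3 did not pass in NASH vehicle against control livers, and 3 fell and 4 did not pass in CDDO-Me against NASH vehicle livers. The shares over all tested genes were 29.6% higher and 30.0% lower in the first comparison, and 9.39% and 7.24% in the other. With library totals or limma-trend, all 7 lineage genes were called higher in the first comparison. Spi1, which encodes the myeloid factor PU.1, had 22.5 ± 5.1 CPM in CDDO-Me, 45.0 ± 8.5 CPM in NASH vehicle and 2.84 ± 0.60 CPM in control livers (SD, n = 4 each; log2 fold change -0.998 ± 0.178 in CDDO-Me against NASH vehicle, edgeR adjusted p = 0.0023). Irf8, a factor of dendritic cells and monocytes, fell by 0.86 ± 0.15 (edgeR adjusted p = 0.0016). Relb, an NF-kB subunit of mature dendritic cells, fell by 0.86 ± 0.22 (edgeR adjusted p = 0.020), a call lost in 5 of the 12 fits that left out a library.

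Endosomal proteases prepare peptides and trim the invariant chain. Of 9 genes of this step, 7 rose, 1 fell and 1 did not pass in NASH vehicle against control livers, and 1 rose, 6 fell and 2 did not pass in CDDO-Me against NASH vehicle livers. Of all tested genes, 29.6% were called higher and 30.0% lower in the first comparison, and 9.39% and 7.24% in the other. With library totals or limma-trend, all 9 were called higher in the first. In the other, library totals gave 1 higher and 7 lower, and limma-trend 0 and 8. Ctss, the protease that makes the last cut of the invariant chain, had 245 ± 75 CPM in CDDO-Me, 537 ± 159 CPM in NASH vehicle and 17.1 ± 3.1 CPM in control livers (SD, n = 4 each). Its log2 fold change was 4.97 ± 0.30 in NASH vehicle against control and -1.13 ± 0.25 in CDDO-Me against NASH vehicle livers (edgeR adjusted p = 7.1e-08 and 0.0094). Lgmn, an asparagine endopeptidase, fell by 0.96 ± 0.10 in CDDO-Me against NASH vehicle livers (edgeR adjusted p = 5.9e-05). Ctsd, an aspartic protease, fell by 0.94 ± 0.15 (edgeR adjusted p = 0.0011), and Ifi30, the thiol reductase GILT, by 0.64 ± 0.15 (edgeR adjusted p = 0.011). Whether these falls exceed that of Cd74 was not tested.

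Genes of class II turnover at the surface and of costimulation complete the pathway. Beside both counts, 29.6% of all tested genes were called higher and 30.0% lower in NASH vehicle against control livers. For CDDO-Me against NASH vehicle livers the shares were 9.39% and 7.24%. Of 6 turnover genes, 4 rose and 2 fell in NASH vehicle against control livers, and 2 fell and 4 did not pass in CDDO-Me against NASH vehicle livers. With library totals or limma-trend, 5 were called higher and 1 lower in the first comparison. March1, the ubiquitin ligase that removes class II from the surface, rose by 2.75 ± 0.36 and stood at -0.42 (edgeR adjusted p = 2.7e-05 and 0.42). Cd83, which opposes it, had 4.53 ± 1.68 CPM in CDDO-Me, 11.1 ± 2.1 CPM in NASH vehicle and 0.81 ± 0.27 CPM in control livers (SD, n = 4 each), a fall of 1.29 ± 0.28 in CDDO-Me against NASH vehicle livers (edgeR adjusted p = 0.0071). All 5 tested costimulation and checkpoint ligands rose in NASH vehicle against control livers, and 2 fell and 3 did not pass in CDDO-Me against NASH vehicle livers. With limma-trend, all 5 were called lower in that last comparison, and with library totals 2. Cd86, the ligand of CD28, had 2.65 ± 0.43 CPM in CDDO-Me, 6.24 ± 0.71 CPM in NASH vehicle and 0.89 ± 0.13 CPM in control livers (SD, n = 4 each; log2 fold change -1.23 ± 0.19 in CDDO-Me against NASH vehicle, edgeR adjusted p = 7.5e-04). Cd274, which encodes the checkpoint ligand PD-L1, fell by 0.65 ± 0.18 (edgeR adjusted p = 0.025), a call lost in 4 of the 12 fits that left out a library.

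On the side of the T cell, 5 of 9 genes of class II recognition by CD4 T cells rose and 4 did not pass in NASH vehicle against control livers. Among all tested genes 29.6% were called higher there. With library totals 6 of the 9 were called higher, and with limma-trend 7. The 5 called with TMM were Cd3d, Cd3e, Cd3g, Lck and Cd28, which CD8 T cells are known to express too. Cd4 and Lag3, whose proteins bind class II themselves, were not among them. Cd4 had 0.80 CPM in CDDO-Me, 1.13 CPM in NASH vehicle and 2.02 CPM in control livers, and Lag3 1.10, 2.21 and 2.39 CPM (means, n = 4 each). In NASH vehicle against control livers they stood at -0.84 and -0.11 (edgeR adjusted p = 0.14 and 0.81). In CDDO-Me against control livers both fell, Cd4 by 1.32 ± 0.48 and Lag3 by 1.10 ± 0.37 (edgeR adjusted p = 0.033 and 0.025), and neither passed there with library totals or on the TPM scale. For CDDO-Me against NASH vehicle 1 of the 9 genes fell and 8 did not pass, where 7.24% of all tested genes were called lower. The fall was that of Cd3g, a chain of the T cell receptor complex, at -1.56 ± 0.50 (edgeR adjusted p = 0.049, lost in 9 of the 12 fits that left out a library). Lck, the kinase bound to CD4, rose by 2.16 ± 0.28 in NASH vehicle against control livers (edgeR adjusted p = 1.9e-05) and stood at -0.56 in CDDO-Me against NASH vehicle livers (edgeR adjusted p = 0.15).

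**Figure D4:**
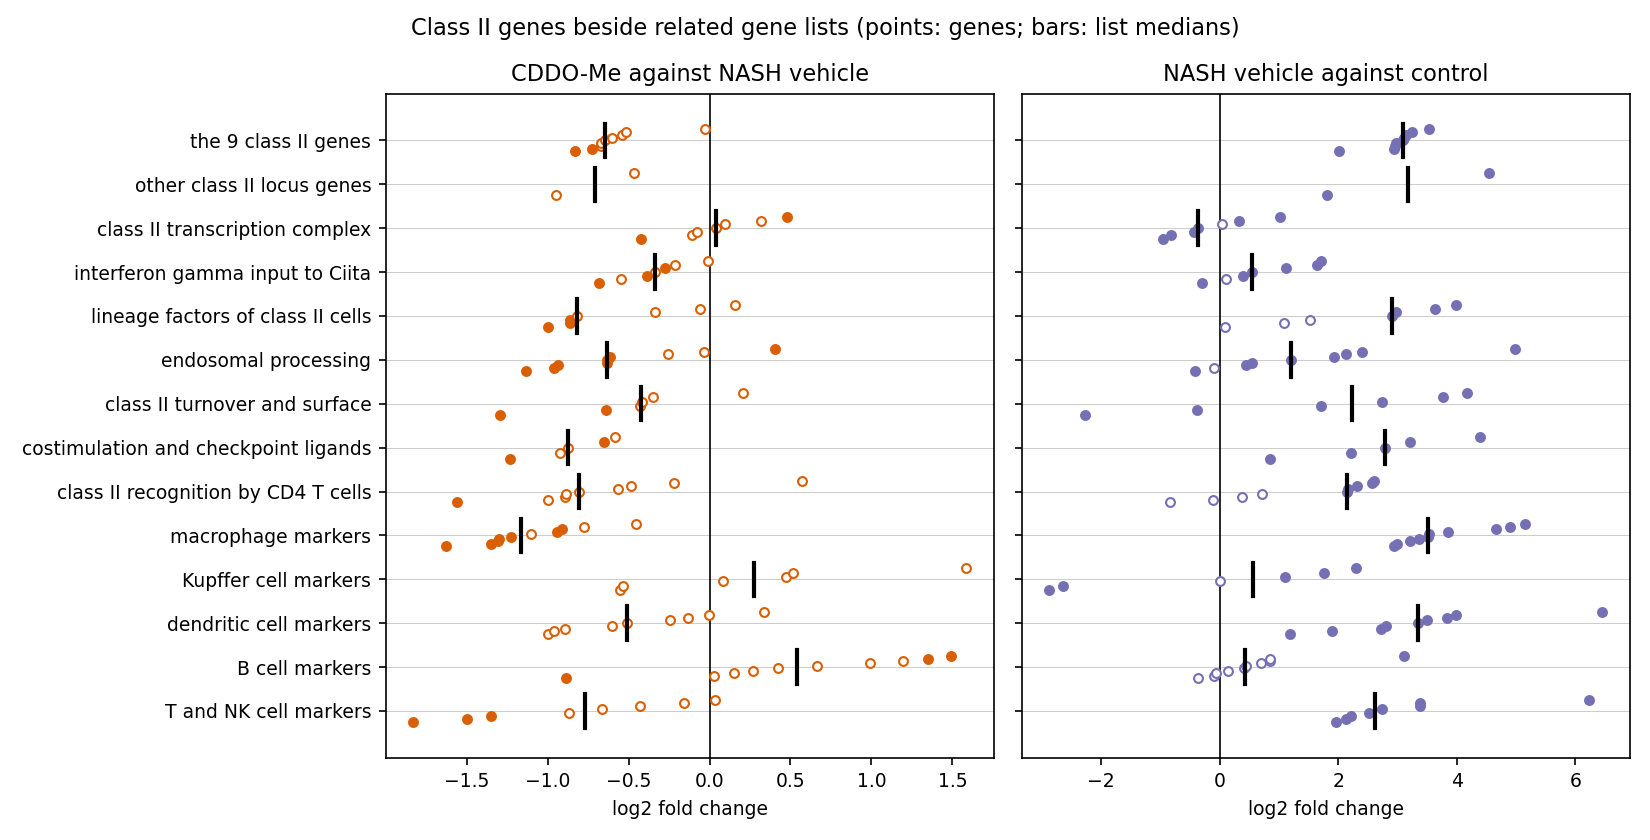
Log2 fold changes of the genes of each list in CDDO-Me against NASH vehicle (left) and NASH vehicle against control (right); filled points passed the adjusted threshold of 0.05, open points did not, and vertical bars are list medians. The class II genes have medians of -0.646 and 3.08, dendritic cell markers of -0.508 and 3.34, and macrophage markers of -1.16 and 3.52.

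Marker lists of the cell types known to carry class II were read beside the family. The shares of all tested genes called were 29.6% higher and 30.0% lower in NASH vehicle against control livers. They were 9.39% and 7.24% in CDDO-Me against NASH vehicle livers. All 10 macrophage markers rose in NASH vehicle against control livers (median log2 fold change 3.52), and 7 fell and 3 did not pass in CDDO-Me against NASH vehicle livers (median -1.16). Mpeg1, a pore-forming protein of macrophages, fell by 0.91 ± 0.14 and C1qb, a complement chain, by 1.31 ± 0.16 (edgeR adjusted p = 6.2e-04 and 1.4e-04). All 9 dendritic cell markers rose in NASH vehicle against control livers (median 3.34), and none of the 9 passed in CDDO-Me against NASH vehicle livers by edgeR (median -0.508). At an unadjusted p under 0.05 edgeR had 1 of them lower, DESeq2 called 0, and limma-trend on the TPM scale called 2 lower. Clec9a, of the dendritic cells that cross-present antigen, had 5.67 ± 0.60 CPM in CDDO-Me, 5.69 ± 0.97 CPM in NASH vehicle and 1.53 ± 0.28 CPM in control livers (SD, n = 4 each), and its CDDO-Me difference had a 95% interval of -0.39 to 0.38. Siglech, of plasmacytoid dendritic cells, and Cd209a, of monocyte-derived ones, stood at -0.13 and 0.33 in that comparison (edgeR adjusted p = 0.83 and 0.55). These 3 were not typical of the list. Of its 9 fitted values 8 were negative, Cd209a being the 1 positive. The lowest were those of Ccr7 (-0.996), Flt3 (-0.96) and Itgae (-0.89), with edgeR adjusted p of 0.19, 0.30 and 0.12. The medians of the class II genes, of -0.646 and 3.08, are descriptions beside these, and no test of one list against another was made.

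B cell markers, which bear on H2-Oa and H2-Ob, were at most 7.40 CPM in any group mean, the highest being Cd22 in NASH vehicle livers. Of 10, 1 rose and 9 did not pass in NASH vehicle against control livers, and 2 rose, 1 fell and 7 did not pass in CDDO-Me against NASH vehicle livers. Among all tested genes 29.6% were called higher and 30.0% lower in the first comparison, and 9.39% and 7.24% in the other. The counts of B cell markers depended on the scaling. In NASH vehicle against control livers, library totals gave 5 higher and limma-trend 3, with 0 lower in each. In CDDO-Me against NASH vehicle livers, library totals gave 0 higher and 1 lower, and limma-trend 1 and 1. Their summed level was 9.72, 10.9, 8.74 and 16.2 TPM in CDDO-Me livers, against 8.47, 10.2, 12.9 and 12.9 TPM in NASH vehicle livers and 1.90, 3.19, 6.53 and 2.47 TPM in control livers. CDDO-Me 4, the liver with the highest H2-Ob, also had the highest B cell sum, and the part of B cells in the H2-Ob values was not tested. Pax5, the B cell identity factor, had 1.26 ± 0.28 CPM in CDDO-Me and 0.49 ± 0.11 CPM in NASH vehicle livers (SD, n = 4 each; log2 fold change 1.35 ± 0.40, edgeR adjusted p = 0.034), a call lost in 8 of the 12 fits that left out a library. Cd22, an inhibitory receptor of B cells, fell by 0.89 ± 0.24 in CDDO-Me against NASH vehicle livers (edgeR adjusted p = 0.024; lost in 4 of the 12).

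The remaining marker lists are given as counts. Beside them, 29.6% of all tested genes were called higher and 30.0% lower in NASH vehicle against control livers. For CDDO-Me against NASH vehicle livers 9.39% were called higher and 7.24% lower. Of 6 Kupffer cell markers, 3 rose, 2 fell and 1 did not pass in NASH vehicle against control livers, and none passed in CDDO-Me against NASH vehicle livers by edgeR. At an unadjusted p under 0.05 edgeR had 1 higher, DESeq2 called 1 higher, and limma-trend called 1 higher and 1 lower. Their summed level was 240 to 365 TPM in CDDO-Me, 199 to 479 TPM in NASH vehicle and 54.7 to 87.4 TPM in control livers. NASH vehicle 1, the lowest of its group for the class II genes, was the highest in that sum. All 8 T and NK cell markers rose in NASH vehicle against control livers, and 3 fell and 5 did not pass in CDDO-Me against NASH vehicle livers. In the same 2 comparisons, sinusoidal endothelial markers had 1 of 6 higher and 3 lower, then 4 higher and 0 lower. Stellate cell markers had 5 of 6 higher and 0 lower, then 0 higher and 3 lower. Cholangiocyte markers had 3 of 5 higher and 0 lower, then 0 in either direction by edgeR, DESeq2 and limma-trend (1 lower at an unadjusted p under 0.05 by edgeR). Hepatocyte markers had 0 of 7 higher and 7 lower, then 1 higher and 0 lower. With library totals or limma-trend, NASH vehicle against control gave 2 sinusoidal endothelial markers higher and 2 lower, and 4 hepatocyte markers lower. In CDDO-Me against NASH vehicle livers these settings gave 1 hepatocyte marker higher and 1 or 2 lower.

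Over the 12 livers, the genes of the family were compared with the shared profile of H2-Aa, H2-Ab1, H2-Eb1 and Cd74, the mean of their gene-centred log2 CPM. The distance used was the root mean square difference, and a lower value means a closer match. H2-DMa, H2-DMb1 and Ciita lay at 0.32 to 0.33, H2-Ob at 0.58 and H2-Oa at 0.62. Of 13155 genes outside the family with a mean of at least 1 CPM, the nearest to the profile were Ccdc88b (0.174), Pld4 (0.19), Il10ra (0.204), Ltbp3 (0.206), Axl (0.207), Mfge8 (0.211), Tmsb10 (0.213) and Pdgfra (0.216). All 8 had lower distances than H2-DMa, H2-DMb1, Ciita, H2-Oa and H2-Ob, but they were picked as the nearest of all genes ranked. Few reads also widen the distance. In the control livers together H2-Oa had 12 reads, H2-Ob 55, Ciita 112, H2-DMb1 183 and H2-DMa 208. The genes of the profile had 1631 (H2-Aa) to 4711 (Cd74). The distances thus do not rank how closely these members follow the chains. Ccdc88b had 6.68 to 8.89 CPM in CDDO-Me, 10.8 to 19.5 CPM in NASH vehicle and 1.01 to 2.18 CPM in control livers. To H2-Ob the nearest were Dubr, Gem, Pitpnm1, Samd14 and Acot9 (0.179 to 0.236), and to Ciita they were Tbx20, Gpx3, Osmr, Frzb and AU020206 (0.234 to 0.272). The measure describes these 12 livers, in which the groups and the depth are shared by all genes. The names changed with the processing: between 1 and 8 of the 8 nearest to the main profile, and between 0 and 5 of the 5 in each of the other sets, were named again under the alternatives.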

How the data were processed

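Liver RNA of 12 mice was sequenced as poly(A) libraries with 75 bp paired-end reads, per the labels' protocols. The deposited count tables give whole reads per gene for 41325 genes in each library, and total gene reads are the sum of exon and intron reads. The authors also deposited TPM, which are exon reads per exon length scaled to the same total in each library. The build is GRCm38, per the submitters' processing notes; aligner, counter and strand setting: not given in the sources used here.

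Total gene reads were tested with edgeR 4.0.16 under R 4.3.3. The filter was filterByExpr (minimum count 10, minimum total 15, large n 10). Counts were scaled by TMM and fitted with a robust quasi-likelihood model with 1 mean per group over all 12 libraries. Tests were two-sided with Benjamini-Hochberg adjustment over 16456 genes. CPM are TMM-scaled, and gene-centred log2 CPM use a prior count of 2. SE are the absolute log2 fold change over the square root of the F statistic. Ratios used reads plus 0.5 per exon length, with exact permutation tests.

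Members, lists, tests and comparisons were chosen with earlier results of these data known. Named by rule were all 9 members, up to 4 genes a list with the lowest p in either main comparison, and the 8 or 5 nearest genes by profile, leaving out predicted genes, pseudogenes and receptor segments; some genes that the rule allows are given by their counts alone, and 1 gene of the interferon gamma list is not reported here. The labels call the samples replicates of a group and do not say more of their origin, so p-values measure the spread between these 12 livers. Replicate numbers were not taken as pairs. Alternatives were DESeq2 size factors, library totals, DESeq2 1.42.0, no filter, at least 50 reads in 4 libraries, the 8 libraries of a comparison, a replicate block, reads of a single place, exon reads, limma-trend (limma 3.58.1) on log2(TPM + 1), and leaving out each library. TPM were otherwise used to compare levels between genes.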

Additional observations from a re-analysis of the deposited data

Results flagged for a closer look

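Of 60 groups of 4 values checked (each gene and each ratio in each group), 2 held a liver far from the other 3; about 1 in 20 such groups does so by chance. H2-Ab1 to Itgax was 157 in control 4, against 69.1 to 74.4 in the other control livers, where Itgax was at most 1.04 CPM in any control liver. H2-Ob to Cd79b was 1.27 in NASH vehicle 3, against 0.749 to 0.776 in the other NASH vehicle livers.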

How the results depend on the processing

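In NASH vehicle against control and in CDDO-Me against control, 8 or 9 of the 9 class II genes were called higher under each of the 22 alternatives; the count of 8 came from the filter of 50 reads, which removes H2-Oa. In CDDO-Me against NASH vehicle the count of class II genes called lower was 2. It was 5 with DESeq2, 3 with limma-trend on log2(TPM + 1), 1 with no filter on low counts and 1 with the replicate block. When 1 library was left out it was 0 to 5. H2-DMb1 gained a call in 5 of the 10 alternatives other than leaving out a library. The cause was not tested. With the replicate block H2-Ab1 had an adjusted p of 0.055. Deviations of libraries with the same replicate number correlated at -0.223 to 0.187, 2 of 12 above 0.1, and none (0 of 12) of the libraries correlated best with its own number, so the numbers were not used as pairs. H2-Ob was -0.03 in CDDO-Me against NASH vehicle and turned positive in 5 of the fits that left out a library (-0.289 to 0.0863 over the 12). Clec9a, at -0.01, turned to 0.00296 with the replicate block, to 0.0631 with exon reads, and to positive values in 4 of the fits that left out a library (-0.0922 to 0.0906 over the 12). With reads of a single place, the log2 difference of Ciita to H2-Ab1 turned to -0.237 in CDDO-Me against NASH vehicle and to -0.653 in CDDO-Me against control, and with exon reads that of H2-Oa to H2-DMa turned to -0.0155 in NASH vehicle against control. Counts over all genes also moved. In NASH vehicle against control, 10905 were higher and 873 lower with limma-trend on log2(TPM + 1), against 4874 and 4945. In CDDO-Me against NASH vehicle the same setting gave 779 higher and 2607 lower, against 1545 and 1191, DESeq2 gave 1853 lower, and leaving out a library gave 930 to 1972 higher and 617 to 1498 lower. In CDDO-Me against control, library totals gave 8678 higher and 1125 lower and limma-trend 8845 and 812, against 4317 and 3881. The family's median in CDDO-Me against NASH vehicle was -0.795 with library totals and -0.846 with limma-trend, where the median of all genes was -0.162 and -0.158. Of the 9 genes H2-Oa, with 242 reads in 12 libraries, had the widest 95% interval in CDDO-Me against NASH vehicle (-1.68 to 0.60).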
